A study of Mus musculus with 20 samples.

Results

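All fetal mouse hearts exposed to the dioxin TCDD were set against all control hearts as a single comparison. Arrays were assigned by the treatment in their labels alone, so that 12 TCDD arrays (4 at each of 1.5, 3 and 6 µg/kg) formed one group and 8 corn oil arrays the other. These are all 20 arrays of the series, each an Affymetrix MG-U74Av2 hybridisation of total RNA from whole hearts. Corn oil, the vehicle, or TCDD was given by oral gavage on gestation day 14.5, and hearts were collected on day 17.5. The label of 1 array at 1.5 µg/kg writes the treatment day in another form, and that day was not used. Strain, sex and litter are not given in the labels used here. How many hearts or litters stand behind an array is not given either, so every p-value measures only the spread between these arrays, whose number limits the precision.

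TCDD binds the aryl hydrocarbon receptor (AhR), a ligand-activated transcription factor held in the cytoplasm by chaperones. The bound receptor enters the nucleus, pairs with Arnt and binds short DNA elements near its target genes, of which the cytochrome P450 genes Cyp1a1 and Cyp1b1 are the best known. The developing heart is among the organs that dioxin is known to affect. Pooling the doses asks which transcripts differ between exposed and control hearts on average over them. A change confined to some doses can be missed.

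The promoters of 3 of the 4 genes that passed the test are shown so that the core of the AhR binding element can be looked for in them. Each window runs from 250 bases before to 50 bases after the start that the RefSeq table of assembly GRCm38.p6 gives the gene, which for Cyp1a1 lies inside the span of the gene record, printed 5′ to 3′ on the strand of the gene, with the core GCGTG, or CACGC where it lies on the other strand, in capitals. The windows are chr9:57697363-57697662 (plus strand) for Cyp1a1, chr17:79715012-79715311 (minus strand) for Cyp1b1 and chr14:55944626-55944925 (minus strand) for the mast cell chymase gene Cma1.
Cyp1a1: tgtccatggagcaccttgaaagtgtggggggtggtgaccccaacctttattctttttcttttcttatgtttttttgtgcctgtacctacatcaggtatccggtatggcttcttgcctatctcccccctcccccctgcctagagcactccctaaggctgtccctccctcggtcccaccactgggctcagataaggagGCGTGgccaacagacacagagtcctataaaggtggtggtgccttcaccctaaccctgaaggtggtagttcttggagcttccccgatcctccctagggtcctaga
Cyp1b1: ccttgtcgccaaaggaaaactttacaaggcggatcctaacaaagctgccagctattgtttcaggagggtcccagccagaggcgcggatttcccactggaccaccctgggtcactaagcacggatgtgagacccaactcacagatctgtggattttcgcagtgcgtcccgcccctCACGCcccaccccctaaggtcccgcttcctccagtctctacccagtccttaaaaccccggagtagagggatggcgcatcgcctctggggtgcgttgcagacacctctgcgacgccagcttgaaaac
Cma1: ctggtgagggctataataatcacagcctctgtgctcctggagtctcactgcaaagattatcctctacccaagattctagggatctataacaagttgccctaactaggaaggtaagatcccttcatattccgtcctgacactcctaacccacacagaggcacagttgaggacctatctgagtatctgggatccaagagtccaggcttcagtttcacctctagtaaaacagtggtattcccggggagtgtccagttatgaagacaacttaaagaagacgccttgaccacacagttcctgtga
The core occurred 1 time in the Cyp1a1 window, 1 time in the Cyp1b1 window and 0 times in the Cma1 window. Of all 32851 RefSeq windows of this length, 10639 (32.4%) hold it on either strand, so a match is a description and not a binding site. No match says only that these letters are not in this window. The well-studied AhR elements of Cyp1a1 lie further upstream than the printed stretch.

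The arrays resembled each other. Median signal lay between 171 and 201 in controls and between 181 and 211 after TCDD, on a scale where the trimmed mean of each array is 500, and correlations between arrays over all probe sets lay between 0.957 and 0.986. The heart muscle genes Myh6 (15500.1 ± 999.8, SD, n = 8), Myh7 (26673 ± 1666) and Nppa (5663 ± 669.9) were far above those medians in controls. The log2 ratio of the 3′ to the middle probe set of β-actin, a sign of RNA quality, was 0.85 or more in 3 of 8 controls and 1 of 12 TCDD arrays. The log2 ratio of the 3′ to the 5′ probe set of Gapdh lay between −0.22 and −0.10 in controls. After TCDD it lay between −0.34 and −0.14. The arrays with a high β-actin ratio are part of these ranges. They read −0.21, −0.19 and −0.21 in controls 1, 2 and 6, and −0.17 in array 4 of 6 µg/kg. Signal of Xist, a transcript of female cells, was under 100 in 3 of 8 controls and 1 of 12 TCDD arrays. With the Xist signal as a covariate the comparison below gave the same 4 genes. With the β-actin ratio as a covariate it gave 7 probe sets higher, with C1qa, Ccl9, Col6a1 and Tbxa2r beside the same 3 genes, and Cma1 lower.

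Cyp1b1, Cyp1a1 and Cd74 rose in the TCDD hearts, and Cma1 fell. These were the only 4 of 8097 probe sets (0.0494%) with an adjusted p under 0.05 in limma's moderated test of 12 TCDD against 8 control arrays, 3 higher (0.0371%) and 1 lower (0.0124%). At an unadjusted p under 0.05 there were 653 (8.06%), of which 410 were higher (5.06%) and 243 lower (3%), where 405 in all would be met by chance if no probe set differed. Differences are given as log2(signal + 32), TCDD minus control, which understates the change of dim genes. Their median over all tested probe sets was 0.00 and the median standard error 0.11. The same 3 higher probe sets (0.0371% of all tested) were the only ones for which all 12 TCDD arrays lay above all 8 controls, and 0 probe sets (0%) had all 12 below. Size alone did not decide: Reg3g, an antibacterial lectin of epithelia that was singled out after its values were seen, had a log2 difference of 1.63, as large as that of Cyp1b1. Its signal ran from 11.8 to 612 in controls and from 11.9 to 1612 after TCDD, and with a standard error of 0.74 it did not pass (limma adjusted p = 0.598).

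**Figure D1:**
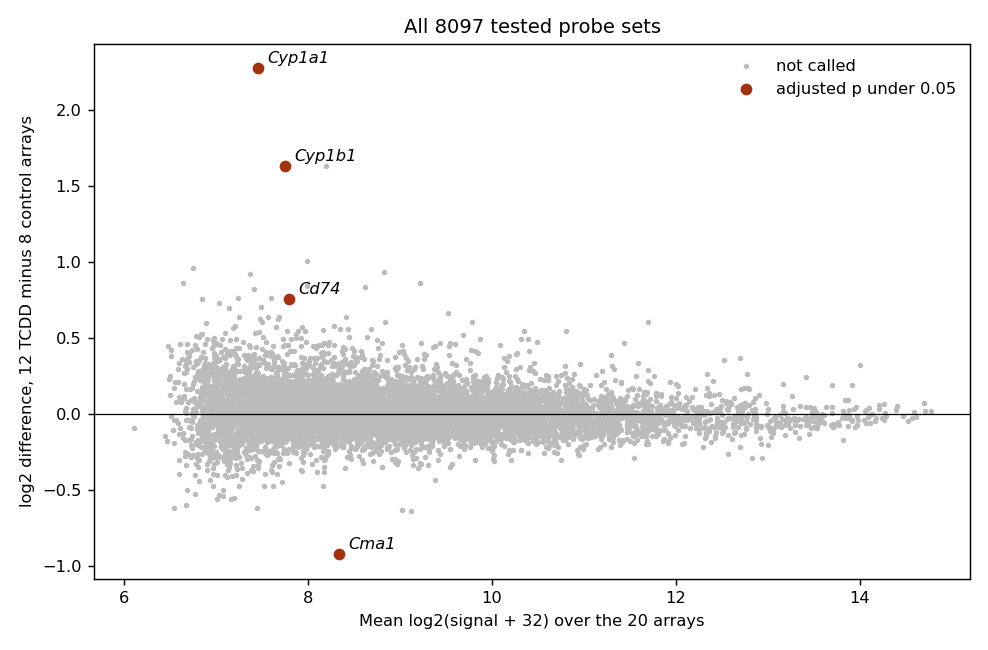
Mean log2(signal + 32) over the 20 arrays (horizontal) against the log2 difference of 12 TCDD minus 8 control arrays (vertical) for the 8097 tested probe sets, each a point, with the 4 of adjusted p under 0.05 in red. Cyp1a1 (2.27) lies highest, Cyp1b1 (1.63) lies beside the uncalled grey point of Reg3g, Cd74 lies at 0.75 among grey points of like size, and Cma1 (−0.93) lies lowest.

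Cyp1a1, the P450 enzyme used most often as a marker of AhR activity, had the largest rise of the 4. Its control signals were 16.9, 70.6, 67.3, 15.4, 21.1, 60.6, 30.7 and 34.2. They were 93.6, 188, 205 and 411 at 1.5 µg/kg, 270, 404, 218 and 208 at 3 µg/kg, and 333, 456, 688 and 549 at 6 µg/kg. Every TCDD array thus exceeded every control, with the smallest gap between a control at 70.6 and an array of the lowest dose at 93.6. The mean went from 39.6 ± 23.0 (SD, n = 8) to 335 ± 172 (SD, n = 12), a log2 difference of 2.27 ± 0.26 (SE; limma adjusted p = 1.77e-05). All controls were far below the median of an array, so that size rests on the pseudocount: it was 3.08 with a pseudocount of 1 and 1.55 with 100. A second probe set of Cyp1a1 showed no such difference, at 94.5 ± 37.2 in controls and 87.1 ± 43.4 after TCDD (log2 −0.13; limma adjusted p = 0.904). The RefSeq gene spans chr9:57687928-57703824 of GRCm38.p6.

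Cyp1b1, the related P450 enzyme that is expressed outside the liver and acts on steroids and polycyclic hydrocarbons, had the smallest adjusted p. Its signals in controls were 86.8, 45.9, 83.6, 63.8, 72.1, 87.8, 80.8 and 112. The 1.5 µg/kg arrays gave 186, 292, 254 and 307, those at 3 µg/kg 226, 377, 259 and 232, and those at 6 µg/kg 357, 506, 384 and 441. The lowest TCDD array was well above the highest control, and the arrays at 1.5 and 3 µg/kg covered about the same range. The mean went from 79.1 ± 19.4 (SD, n = 8) to 318 ± 96.0 (SD, n = 12), a log2 difference of 1.63 ± 0.15 (SE; limma adjusted p = 8.10e-07). The gene spans chr17:79706940-79715061. A further Cyp1b1 probe set was below the filter, at 1.41 in controls and 2.42 after TCDD, and was not tested.

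Cd74 encodes the invariant chain, which escorts MHC class II molecules in antigen-presenting cells. Control signals were 143, 119, 177, 127, 141, 97.4, 123 and 133. They were 220, 307, 203 and 235 at 1.5 µg/kg, 275, 240, 182 and 184 at 3 µg/kg, and 238, 279, 327 and 268 at 6 µg/kg. The groups did not overlap, although the highest control (177) and the lowest TCDD array (182) were close. The mean went from 133 ± 22.9 (SD, n = 8) to 247 ± 46.1 (SD, n = 12), a log2 difference of 0.75 ± 0.11 (SE; limma adjusted p = 7.53e-04). The call ended when the 4 arrays with a high β-actin ratio were left out (log2 0.67; limma adjusted p = 0.0515) and against controls 1 to 4 alone (0.68; 0.0626).

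Cma1, the chymase that mast cells store in their granules, was the only gene lower at an adjusted p under 0.05 in limma. Control signals were 542, 531, 425, 471, 439, 542, 378 and 300. They were 261, 212, 247 and 187 at 1.5 µg/kg, 148, 288, 265 and 303 at 3 µg/kg, and 158, 193, 202 and 223 at 6 µg/kg. Only the array at 303 overlapped the controls, just above the lowest of them at 300, and the other 11 of 12 lay below every control. The mean went from 453 ± 86.5 (SD, n = 8) to 224 ± 49.6 (SD, n = 12), a log2 difference of −0.93 ± 0.12 (SE; limma adjusted p = 2.51e-04). Against controls 5 to 8 alone the difference was −0.80 (limma adjusted p = 0.0729). Both further probe sets of Cma1 were below the filter, at means of 25.0 and 32.03 in controls and 18.1 and 22.2 after TCDD. In RNA of a whole organ, fewer cells of a type and less RNA per cell cannot be told apart. The gene spans chr14:55941451-55944675.

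**Figure D2:**
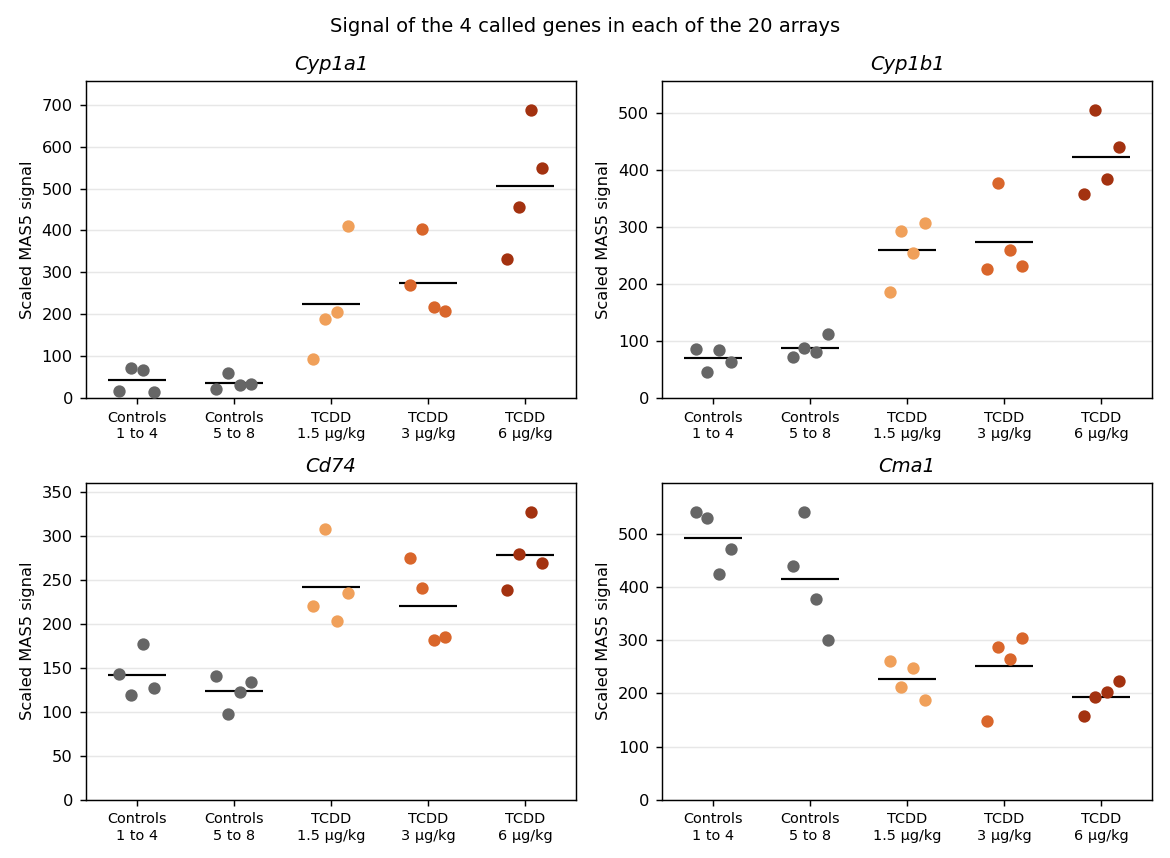
Scaled MAS5 signal (vertical, from 0) of Cyp1a1, Cyp1b1, Cd74 and Cma1 in each of the 20 arrays, 4 points per column for controls 1 to 4, controls 5 to 8 and each dose, with a line at each mean. For the first 3 genes all 12 TCDD points lie above all 8 control points, and for Cma1 1 of 12 reaches the control range.

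Each dose was also set against the same 8 controls, so the values below share them. Cyp1a1 differed by 1.76, 2.12 and 2.93 on the log2 scale at 1.5, 3 and 6 µg/kg, and Cyp1b1 by 1.39, 1.45 and 2.04. Cd74 differed by 0.73, 0.61 and 0.92, and Cma1 by −0.89, −0.80 and −1.09. A limma F test of the difference among the 3 doses gave adjusted p-values of 0.205, 0.197, 0.633 and 0.730 for the 4 genes in that order, so a difference between doses was not detectable for any of them after adjustment.

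The comparison was repeated with a 2-level block, in which controls 1 to 4 stand with 1.5 and 3 µg/kg and controls 5 to 8 with 6 µg/kg. No label names such a batch, so the block is an assumed grouping. With the block as a term, 6 of 8097 probe sets passed in limma (0.0741%), 5 higher (0.0618%) and 1 lower (0.0124%), and 757 (9.35%) had an unadjusted p under 0.05. All 4 genes above were among them: Cyp1b1 at 1.70 ± 0.12 (SE; limma adjusted p = 7.33e-09), Cyp1a1 at 2.36 ± 0.24 (3.06e-06), Cma1 at −0.97 ± 0.12 (4.78e-05) and Cd74 at 0.77 ± 0.11 (8.72e-04). The further ones were Plac8 and a probe set of Pkm. The median standard error was 0.10 with the block and 0.11 without it.

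Plac8 is expressed in leukocytes and placenta. Its signals ran from 182 to 328 in controls, with a median of 236, and from 244 to 587 after TCDD, with a median of 391, and 9 of 12 TCDD arrays lay above every control. The log2 difference of 0.56 ± 0.13 (SE; limma adjusted p = 0.115) became 0.61 ± 0.11 with the block (0.0225). Pkm encodes the muscle form of pyruvate kinase, the last enzyme of glycolysis. The probe set that passed with the block had control signals of 2296, 2649, 1409 and 1652 in controls 1 to 4 and of 3963, 3414, 2760 and 3427 in controls 5 to 8, so that the latter were all higher. Over all arrays its log2 difference was 0.60 ± 0.18 (SE; limma adjusted p = 0.390), and 0.70 ± 0.14 with the block (0.0449). A brighter probe set of Pkm stood at 11492 ± 1109 (SD, n = 8) in controls and 11756 ± 1446 (SD, n = 12) after TCDD, a log2 difference of 0.03.

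The block term itself passed for 758 of 8097 probe sets (9.36%) in that fit, which far exceeds the 6 of the TCDD term. The doses are pooled in that fit, so its block term also takes in any difference between 6 µg/kg and the lower doses. Controls 5 to 8 set directly against controls 1 to 4, in a fit with the 3 doses and both control sets as groups, differed for 127 probe sets (1.57%) at a limma adjusted p under 0.05. The 4 called genes did not pass there: controls 5 to 8 minus controls 1 to 4 came to 0.25 for Cyp1b1, −0.05 for Cyp1a1, −0.25 for Cma1 and −0.15 for Cd74, with adjusted p-values of 0.574, 0.965, 0.555 and 0.711 by limma.

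Within each block alone, the direction of all 4 genes was kept. The 8 arrays at 1.5 and 3 µg/kg against controls 1 to 4 gave 1.92 for Cyp1a1, 1.55 for Cyp1b1, 0.59 for Cd74 and −0.97 for Cma1 on the log2 scale. The 4 arrays at 6 µg/kg against controls 5 to 8 gave 2.96, 1.92, 1.00 and −0.96. Cyp1a1 and Cyp1b1 passed in both blocks, Cma1 passed in the first only (limma adjusted p = 0.0227, against 0.300 in the second) and Cd74 in neither (0.156 and 0.136). The difference between the blocks was tested as an interaction of TCDD and block, which passed for 0 of 8097 probe sets (0%), with a smallest limma adjusted p of 0.763. At an unadjusted p under 0.05 there were 477 (5.89%). Aimp1, a subunit of the multi-tRNA synthetase complex, had the smallest interaction p among the genes named from the pooled comparison (limma adjusted p = 0.763), at −0.51 in the first block and 0.0075 in the second. A difference between blocks in this term is also one between doses, and they cannot be told apart.

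**Figure D3:**
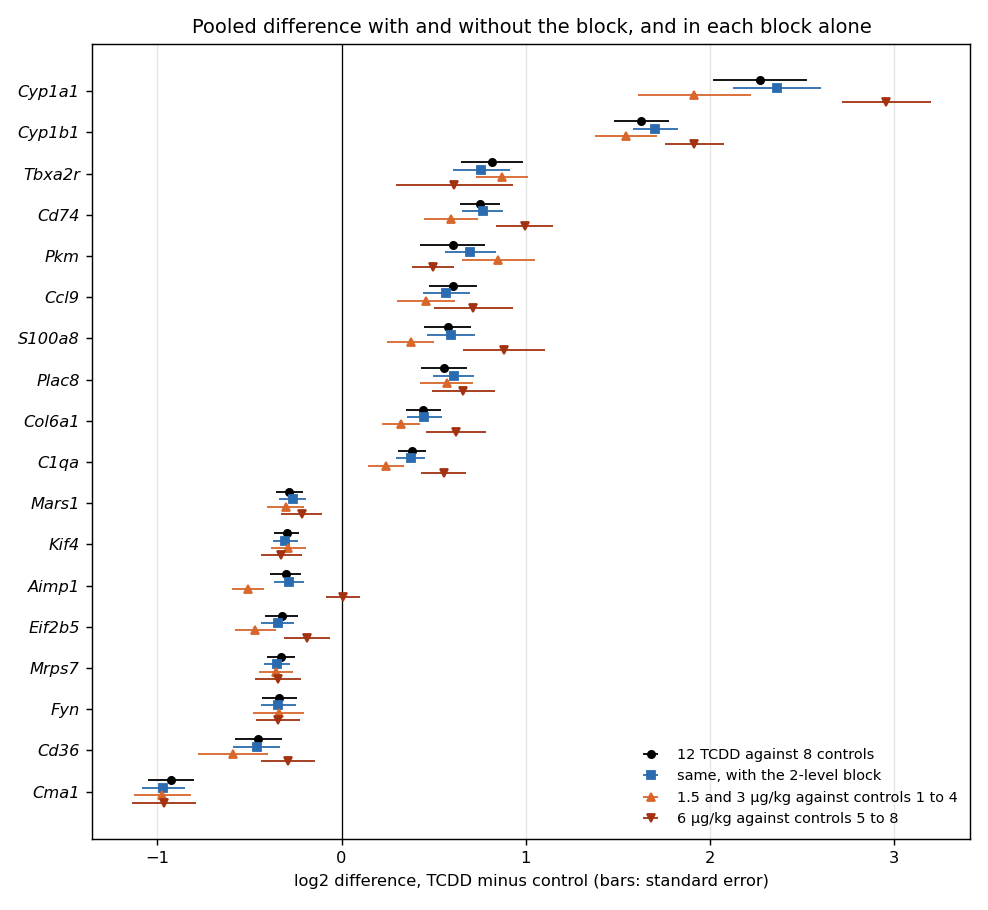
Log2 difference of TCDD minus control (horizontal) with standard errors as bars, for 18 genes named from the pooled comparison or the fit with the 2-level block. Black circles are all 12 against 8 arrays, blue squares the same with the block, orange triangles 1.5 and 3 µg/kg against controls 1 to 4, and red triangles 6 µg/kg against controls 5 to 8. Cyp1a1 and Cyp1b1 lie farthest to the right in all 4 estimates, and the red triangle of Aimp1 lies at 0.01.

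Pooling assumes that the doses do not differ among themselves. The F test over the 3 doses passed for 3 of 8097 probe sets (0.0371%) in limma, those of Ank3, Igf2bp1 and Ints9 (adjusted p = 0.00849 for each), and 968 (12%) had an unadjusted p under 0.05. Ank3 encodes ankyrin-G, which anchors ion channels to the membrane skeleton. It read 968, 1056, 903 and 1023 at 1.5 µg/kg, 829, 1198, 920 and 826 at 3 µg/kg, and 377, 325, 365 and 457 at 6 µg/kg. The arrays at 6 µg/kg were the low ones, and controls 5 to 8 (347, 604, 409 and 403) were likewise below controls 1 to 4 (619, 625, 788 and 903). A second Ank3 probe set was at 897 in controls and 892 after TCDD.

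Igf2bp1 encodes an RNA-binding protein of fetal tissues. It read 1029, 951, 719 and 962 at 1.5 µg/kg, 864, 883, 755 and 741 at 3 µg/kg, and 381, 412, 303 and 415 at 6 µg/kg. Ints9 encodes a subunit of the Integrator complex, which processes small nuclear RNAs, and read 179, 181, 206 and 262, then 219, 204, 169 and 140, then 101, 57.1, 25.2 and 28.7 at the rising doses. For both genes all arrays at 6 µg/kg lay below all of the other 8 TCDD arrays. The controls showed a like split: Igf2bp1 read 677, 498, 685 and 801 in controls 1 to 4 and 474, 583, 385 and 398 in controls 5 to 8, where only the 583 and the 498 overlapped. Ints9 read 182, 255, 154 and 198 in controls 1 to 4 and 127, 106, 124 and 133 in controls 5 to 8, with no overlap. With the 2-level block in the fit the F test passed for 0 probe sets, the limma adjusted p of all 3 genes was 0.999, and 349 had an unadjusted p under 0.05. In the pooled comparison, which averages these doses, Ank3 was at 0.32, Igf2bp1 at 0.24 and Ints9 at −0.23, with limma adjusted p-values of 0.759, 0.796 and 0.854.

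Among the genes just short of the threshold, Tbxa2r, the receptor of the platelet and vessel agonist thromboxane, had the largest difference. Its signal ran from 57.4 to 127 in controls, with a median of 90.7. It was 187, 224, 172 and 216 at 1.5 µg/kg, 196, 196, 207 and 277 at 3 µg/kg, and 105, 111, 102 and 315 at 6 µg/kg. All 8 arrays of the lower doses lay above every control, while 3 of 4 at 6 µg/kg lay within their range. The log2 difference was 0.82 ± 0.17 (SE; limma adjusted p = 0.0752), and without the arrays at 6 µg/kg it was 0.97 and passed (5.60e-04).

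C1qa, a chain of the complement component C1q that macrophages make, ran from 402 to 563 in controls and from 556 to 819 after TCDD. In 11 of 12 TCDD arrays it lay above every control, and its log2 difference was 0.38 ± 0.08 (SE; limma adjusted p = 0.0752). Col6a1, a chain of collagen VI, was at 0.44 ± 0.09 (0.0980), with a brighter probe set at 0.13. Ccl9, a chemokine of myeloid cells, was at 0.60 ± 0.13 (0.105), and S100a8, a calcium-binding protein of neutrophils and monocytes, at 0.58 ± 0.13 (0.115). For these 3 genes, 10, 9 and 8 of 12 TCDD arrays exceeded every control.

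On the lower side, Mrps7, a protein of the mitochondrial ribosome, was at −0.33 ± 0.08 (SE; limma adjusted p = 0.115) and Kif4, a motor protein of the mitotic spindle, at −0.30 ± 0.07 (0.115). Kif4 ran from 483 to 551 in controls and from 352 to 501 after TCDD, and 11 of 12 TCDD arrays lay below every control. The methionyl-tRNA synthetase gene Mars1 was at −0.28 (0.260), and Aimp1, of the same complex, at −0.30 (0.343). Eif2b5, a subunit of the translation initiation factor eIF2B, was at −0.33 (0.343), but its second probe set was at −0.00. The tyrosine kinase gene Fyn was at −0.34 and the fatty acid transporter gene Cd36 at −0.45 (0.343 for both). Foxk2, a forkhead transcription factor named from the fit with the block, was at −0.23 without it (0.553) and −0.27 with it (0.227).

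The lists of genes that follow were described with 1 probe set per gene, the brightest, and none was tested as a set. Of all 6099 genes so measured, 3033 were higher after TCDD (49.7%) and 3066 lower (50.3%), with a median log2 difference of −0.00. At an unadjusted p under 0.05, 315 were higher (5.16%) and 198 lower (3.25%). Under quantile normalization 2788 of 6099 were higher and the median was −0.01, so each list's count is read against that as well.

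All 7 measured AhR target genes were higher, with a median of 0.16, and 2 of 7 passed, Cyp1a1 and Cyp1b1. Their controls (15.4 to 70.6 and 45.9 to 112) were far below the median of an array. Both may thus have reached the filter only through TCDD arrays, so the count of 7 is not independent of their rise. In a fit without that filter both passed as well. The other 5 were Nfe2l2 (0.16 ± 0.08, SE), the regulator of antioxidant genes, the ADP-ribosyltransferase gene Tiparp (0.17 ± 0.17), the quinone reductase gene Nqo1 (0.10 ± 0.12), Aldh3a1 (0.12 ± 0.22) and Gstm3 (0.03 ± 0.11), none of which passed in limma (adjusted p between 0.614 and 0.967). Ahrr, the AhR repressor, was below the filter on dim probe sets. Its signal ran from 19.3 to 82.1 in controls, with a median of 56.4, and from 50.7 to 165 after TCDD, with a median of 88.6, and 7 of 12 TCDD arrays exceeded every control. In a fit without that filter it was at 0.54 ± 0.17 (SE; limma adjusted p = 0.580). Cyp1a2, mainly an enzyme of the liver, was also below the filter, at 43.1 ± 24.1 (SD, n = 8) in controls and 47.3 ± 18.5 (SD, n = 12) after TCDD. The receptor and its partner did not pass either: Ahr was at 0.03 ± 0.17 and Arnt at −0.12 ± 0.10, and the sign of Ahr turned to −0.01 under quantile normalization.

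Markers of macrophages and monocytes were higher in 14 of 15 cases, with a median of 0.24, and 10 had an unadjusted p under 0.05, all of them higher. None passed after adjustment over all probe sets. A further 7 of the 22 listed genes, among them Adgre1, Aif1 and Ptprc, were below the filter. They are in neither these counts nor the sum below. Lgals3, the galectin of activated macrophages, went from 62.1 ± 13.4 (SD, n = 8) to 112 ± 30.7 (SD, n = 12), a log2 difference of 0.59 (limma adjusted p = 0.134). Its controls lay between 42.5 and 81.4, far below the median of an array, so it may have reached the filter only through TCDD arrays. C1qc was at 0.34 (0.260), and the lysosomal protease gene Ctss at 0.29 (0.368). The receptor gene Csf1r, which defines the lineage, was at 0.24 ± 0.09 (0.560). The summed signal of the 15 markers lay between 4509 and 5234 in controls and between 5251 and 6223 after TCDD, without overlap but by a narrow margin. That sum includes Lgals3, which read 51.2 in the highest control (control 5) and 80.9 in the lowest TCDD array (array 4 of 1.5 µg/kg). Without Lgals3 the groups overlap, so the separation is not evidence apart from that gene. The median was 0.20 in the first block alone, 0.21 in the second and 0.21 under quantile normalization.

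Of 7 markers of neutrophils and granulocytes, 7 were higher, with a median of 0.37, and 4 had an unadjusted p under 0.05. S100a9, the partner of S100a8, was at 0.63 ± 0.18 (SE; limma adjusted p = 0.343) and the antimicrobial peptide gene Camp at 0.37 ± 0.11 (0.410), while Ltf, the lactoferrin gene, was at 0.02. Mpo and Prtn3, which define the lineage early, were below the filter. The summed signal lay between 944 and 1335 in controls and between 1305 and 1892 after TCDD. Medians were 0.47 in the first block alone and 0.16 in the second. Under quantile normalization 6 of 7 were higher.

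Of the MHC class II list, 4 of 6 measured genes were higher, with a median of 0.13. H2-Eb1, a class II β chain, was at 0.76 ± 0.25 (SE; limma adjusted p = 0.444), and its control signals ran from 32.4 to 281, which took in most of the TCDD range of 92.2 to 356. H2-DMa was at −0.25 and the lysosomal protease gene Lgmn at −0.13. H2-Aa, H2-Ab1 and the class II regulator Ciita were below the filter. Of the interferon and MHC class I list, 9 of 9 were higher, with a median of 0.17, and 3 had an unadjusted p under 0.05: H2-K1 (0.22 ± 0.07), H2-D1 (0.26 ± 0.08) and Irf7 (0.30 ± 0.14), none passing in limma (adjusted p of 0.410, 0.417 and 0.598). The light chain gene B2m was at 0.04 ± 0.20. The summed signal of the 9 genes lay between 3789 and 7042 in controls, which enclosed the range of 4252 to 6690 after TCDD.

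Of 6 measured mast cell markers, 6 were lower (5 with a pseudocount of 1), with a median of −0.09, but they were far from alike. Cpa3, the carboxypeptidase of mast cell granules, had a signal of 189 ± 30.1 (SD, n = 8) in controls and 138 ± 37.7 (SD, n = 12) after TCDD, a log2 difference of −0.40 (limma adjusted p = 0.444), and 7 of 12 TCDD arrays lay below every control. A second, dimmer probe set of Cpa3 was at −0.13 (limma adjusted p = 0.876). Hdc, which makes histamine, was at −0.16 ± 0.11 and the stem cell factor receptor gene Kit at −0.03 ± 0.09. The tryptase gene Tpsb2 was at −0.01 ± 0.16, from a signal of 439 in controls to 421. Mcpt4, Fcer1a and Ms4a2 were below the filter. The summed signal of the 6 lay between 1743 and 2143 in controls and between 1440 and 1896 after TCDD. That sum includes Cma1, whose mean alone went from 453 to 224, and so is not separate from its call. The parts of cell number and of other cell types in these values were not tested.

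**Figure D4:**
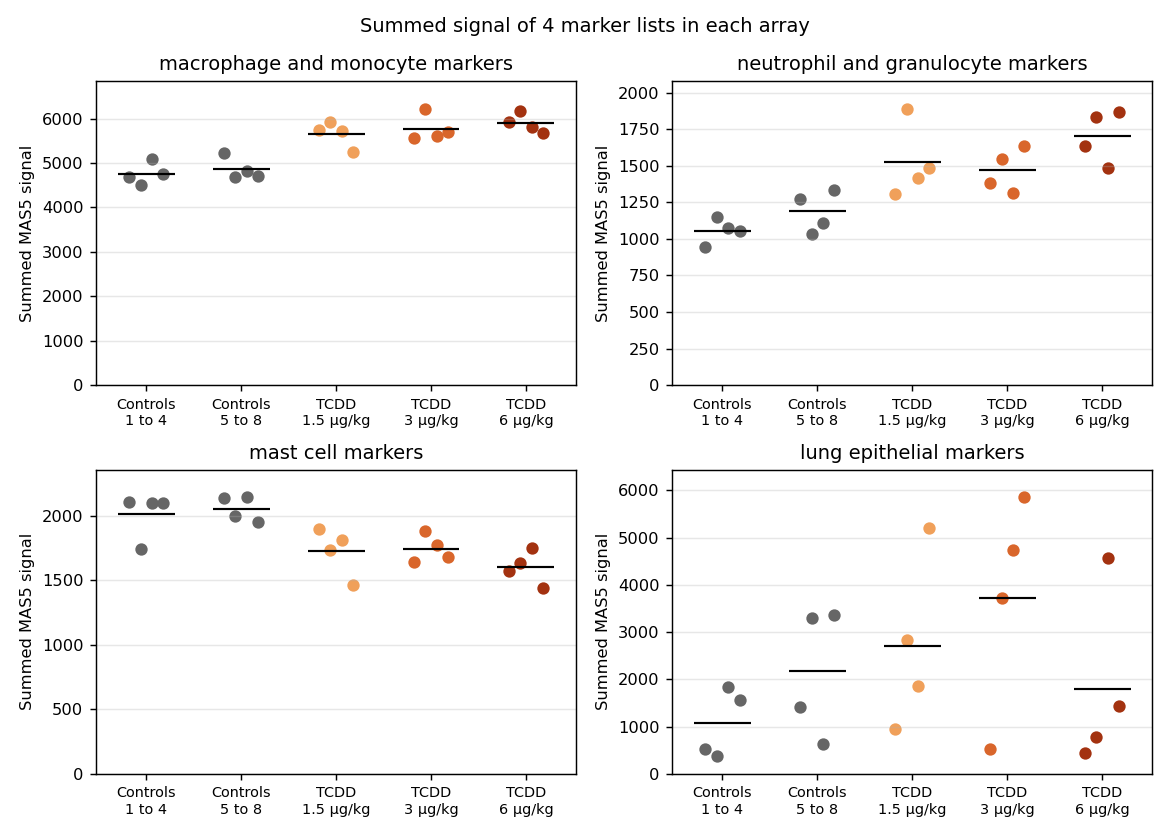
Summed scaled MAS5 signal (vertical, from 0) of 4 marker lists in each of the 20 arrays, 4 points per column, with lines at the means. The mast cell sum includes the called gene Cma1. Macrophage sums lie between 5251 and 6223 in all 12 TCDD arrays, above all 8 controls (4509 to 5234). That gap is lost without Lgals3. Mast cell and neutrophil sums overlap between groups, the former through control 2 (1743) alone, with TCDD sums up to 1896. The lung epithelial sums spread from 385 to 5852.

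Markers of lung epithelium were read because tissue next to the heart can be carried along in dissection. Of 6 measured, 6 were higher after TCDD, with a median of 0.54, which became 1.17 in the first block alone and −0.17 in the second. The summed signal lay between 385 and 3360 in controls and between 446 and 5852 after TCDD. Scgb1a1, the secretoglobin of airway club cells, was at 1.01 ± 0.41 (SE; limma adjusted p = 0.570), and the surfactant gene Sftpb was at 0.57 ± 0.40 (0.753). With the mean of these markers as a covariate, the 4 called genes passed in limma.

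Genes of heart energy use were mostly lower by small amounts. Of 22 measured genes of fatty acid uptake and oxidation, 17 were lower (16 under quantile normalization) and 5 higher, with a median of −0.11, and 7 had an unadjusted p under 0.05, all lower. Decr1, which handles unsaturated fatty acids in mitochondria, was at −0.25 ± 0.09 (SE; limma adjusted p = 0.466) and Fabp3, the fatty acid binding protein of heart muscle, at −0.29 ± 0.11 (0.508). Of 53 genes of oxidative phosphorylation and the TCA cycle, 51 were lower (46 under quantile normalization), but the median was only −0.06 and 1 had an unadjusted p under 0.05, Idh3g (−0.15 ± 0.07; 0.598). With the 2-level block in the fit 45 of 53 were lower, and in the second block alone 22 of 53, with a median there of 0.01.

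Mitosis genes were lower in 29 of 33 cases, with a median of −0.12, and 9 of the 33 had an unadjusted p under 0.05, all lower. Beside Kif4 these included Cdc20, the activator of the anaphase-promoting complex (−0.23 ± 0.07, SE; limma adjusted p = 0.421), the spindle motor gene Kif11 (−0.23 ± 0.08; 0.487), the proliferation marker Mki67 (−0.27 ± 0.11; 0.560) and Cdk1, the kinase that drives entry into mitosis (−0.27 ± 0.11; 0.577). Median values were −0.16 in the first block alone and −0.11 in the second. The summed signal of the 33 genes was highest in controls 1, 2 and 6 (46294, 45229 and 46825), the controls with a high β-actin ratio. In the other controls it lay between 40404 and 42133, within the TCDD range of 37587 to 43174. The part of RNA quality in this list as a whole was not tested. Of 27 proteasome subunits, 24 were lower, with a median of −0.10, and 9 had an unadjusted p under 0.05, all lower. Psmd13 was at −0.30 ± 0.10 (0.465), Psmc1 at −0.23 ± 0.08 (0.466) and Psmb4 at −0.19 ± 0.07 (0.515). Both lists kept these counts under quantile normalization, and no member passed in the pooled fit.

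Of 35 genes of the fibrillar and structural matrix, 27 were higher, with a median of 0.13, and 11 had an unadjusted p under 0.05, all higher. Mfap2 and Mfap4, proteins of elastic microfibrils, were at 0.25 ± 0.07 (SE; limma adjusted p = 0.405) and 0.41 ± 0.14 (0.465). Col6a2, another chain of collagen VI, was at 0.29 ± 0.12 (0.577) and the elastin gene Eln at 0.32 ± 0.14 (0.586). Medians were 0.12 in the first block alone and 0.10 in the second, and 28 of 35 were higher under quantile normalization.

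Genes of the contractile apparatus and the natriuretic peptides did not pass. Of 25 measured contractile genes, 17 were lower and 8 higher, with a median of −0.02 (9 higher under quantile normalization), which was −0.06 in the first block alone and 0.06 in the second. The adult-type myosin gene Myh6 was at −0.17 ± 0.06 (SE; limma adjusted p = 0.483), with 8 of 12 TCDD arrays below every control and 1 above them all. The myoglobin gene Mb was at −0.26 ± 0.11 (0.598) and the muscle creatine kinase gene Ckm at −0.15 ± 0.07 (0.614). The fetal myosin gene Myh7 was at 0.01 ± 0.07, Nppa at −0.03 ± 0.07 and Nppb, the stress-responsive natriuretic peptide, at −0.09 ± 0.10. The signs of these last 3 turned under some settings.

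**Figure D5:**
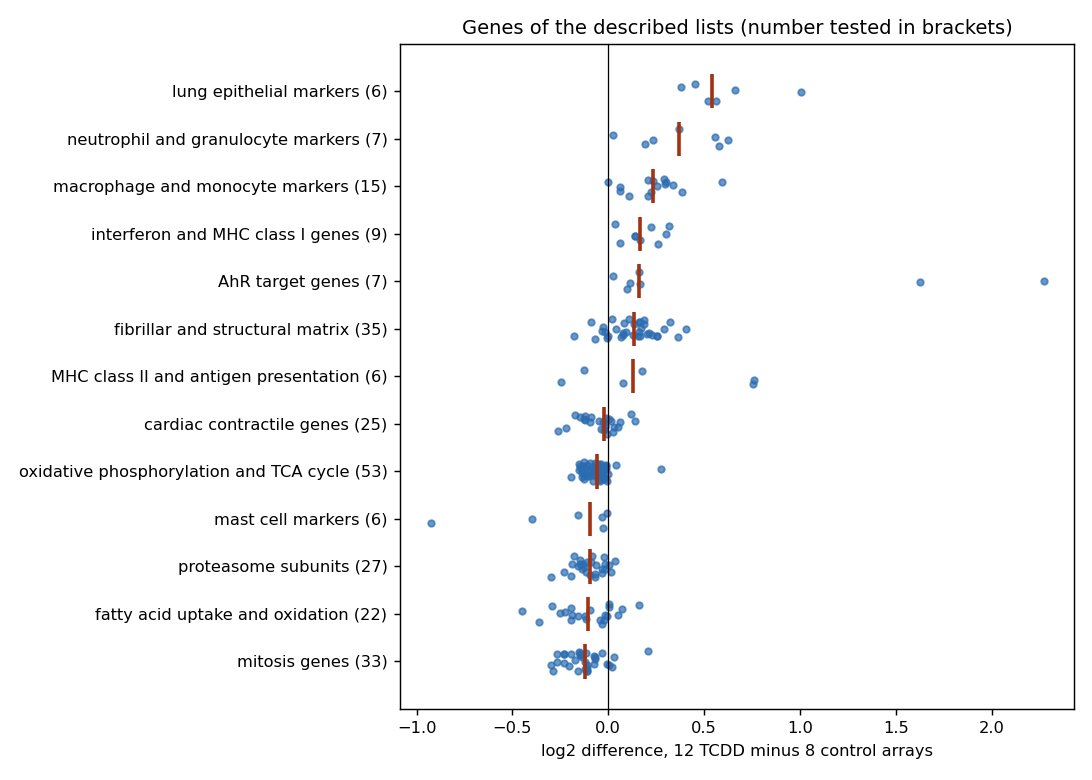
Log2 difference of 12 TCDD minus 8 control arrays (horizontal) for each measured gene of 13 lists, a blue point per gene on its brightest probe set, with red bars at list medians. Medians run from 0.54 for lung epithelial markers to −0.12 for mitosis genes, and Cyp1a1 (2.27), Cyp1b1 (1.63) and Cma1 (−0.93) stand away from the other members of their lists.

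The other 26 lists held 372 measured gene places, 0 of which passed in limma. Their medians ran from −0.13 for skeletal muscle markers to 0.24 for retinoid genes. Of 17 epicardial and fibroblast genes 16 were higher (14 under quantile normalization), with a median of 0.13, and in the second block alone 8 of 17 were, with a median of −0.00. Of 8 erythroid markers 7 were higher, with medians of 0.40 in the first block alone and −0.09 in the second, and of 6 liver markers 5 were higher, with medians of 0.42 and −0.06. The difference between the blocks was not tested for these lists.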

How the data were processed

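RNA from whole fetal hearts was hybridised to 20 arrays. Per the submitters' processing notes, the authors made the deposited values with MAS5, as an intensity on a linear scale for each probe set. The version of MAS5 is not given in the sources used here. The 2% trimmed mean of the deposited values was near 500 in every array. Of 12488 probe sets 66 AFFX controls were left out. Signals were rescaled to a trimmed mean of 500 and taken as log2(signal + 32), and 8097 of 12422 probe sets were tested, those that reached the 40th percentile of an array in at least 4 arrays. Symbols came from the platform annotation, updated through RefSeq (GRCm38.p6): 10833 probe sets had 1 symbol, 396 several and 1193 none, and 10817 were matched. Positions and promoters are those of the RefSeq genes, not of the probes.

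Fits used R 4.3.3 and limma 3.58.1 (lmFit, and eBayes with an intensity trend) on all 20 arrays, two-sided, with Benjamini-Hochberg adjustment over the 8097 probe sets and a threshold of 0.05. They compared 12 TCDD with 8 control arrays, the blocks through an interaction term, and the 3 doses by an F test with 4 group means. The code was tested on simulated data. Named genes were up to 8 per direction from the pooled comparison, up to 5 per direction with the 2-level block, 5 each from the interaction and dose tests, a fixed set of AhR, heart and previously reported genes, and the 3 smallest p per list, of which examples are printed. Genes with several probe sets were taken at the one that met the rule. The members, the 39 gene lists and the tests were chosen with earlier results of these data known. Other genes of a list were named after their values were seen. Alternatives changed the block, the controls or doses used, normalization, pseudocount, filter, moderation, weights, a 1.2-fold minimum change, and covariates for β-actin ratio, Xist and lung markers, and left out each array. The contrast of controls 5 to 8 with controls 1 to 4 was added after seeing the data. Replicate numbers in the labels were not taken as a pairing in the main fits. Plots used matplotlib 3.10.9 in Python 3.11.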

Additional observations from a re-analysis of the deposited data

Results flagged for a closer look

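For 57 named genes, each dose group and the controls were checked for 1 array that stood apart from the rest of its group by Dixon's test, 228 groups in all. It marked 14, where chance alone gives about 1 in 20 groups, or about 11. None of them concerned a gene that passed the pooled comparison. Tbxa2r was marked at both higher doses: array 4 read 277 at 3 µg/kg, where the others lay between 196 and 207, and array 4 of 6 µg/kg read 315 against 102 to 111. Without that array of 6 µg/kg Tbxa2r was at 0.76 (limma adjusted p = 0.0950).

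Of lung epithelial markers, Sftpb read 540 in array 3 of 6 µg/kg, where the others lay between 54.1 and 64.1, and Cyp2f2 read 123 in array 1 of 3 µg/kg, below the 427 to 522 of the others. Of immune genes, H2-Eb1 read 92.2 in array 3 of 1.5 µg/kg (others 225 to 251), S100a8 read 458 in array 2 of 6 µg/kg (370 to 381), H2-D1 read 660 in array 3 of 6 µg/kg (781 to 803) and Ccl9 read 222 in array 2 of 1.5 µg/kg (174 to 180). Of muscle and metabolic genes, Mb read 4005 in array 2 of 1.5 µg/kg (5224 to 5434), Ckm read 2567 in control 2 (2073 to 2272) and Cd36 read 132 in array 4 of 6 µg/kg (168 to 172). The last 3 were Arnt at 223 in array 2 of 3 µg/kg (330 to 346), Nqo1 at 121 in array 1 of 3 µg/kg (102 to 103) and Eif2b5 at 448 in array 2 of 6 µg/kg (524 to 538). What sets these arrays apart was not tested.

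Without the 2-level block, the F test among the 3 doses passed for Ank3, Igf2bp1 and Ints9, each with a limma adjusted p of 0.00849. With the block in the fit, the limma adjusted p was 0.999 for each. Their arrays at 6 µg/kg were all below those at 1.5 and 3 µg/kg. Controls 5 to 8, which share the block of 6 µg/kg, read 347 to 604 for Ank3 and 106 to 133 for Ints9, below the 619 to 903 and 154 to 255 of controls 1 to 4. For Igf2bp1 they read 385 to 583 against 498 to 801.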

How the results depend on the processing

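Each result was recomputed under 23 alternatives and with each of the 20 arrays left out. Cyp1a1 and Cyp1b1 passed in all of them. All 4 called genes passed whichever array was left out, with limma adjusted p-values of at most 9.48e-05 for Cyp1a1, 4.82e-06 for Cyp1b1, 0.00128 for Cma1 and 0.00296 for Cd74. Over the other alternatives the log2 difference ran from 1.55 to 3.08 for Cyp1a1, 1.198 to 1.98 for Cyp1b1, −1.05 to −0.77 for Cma1 and 0.57 to 1.00 for Cd74. The call of Cd74 ended in 6 of 22 (limma adjusted p up to 0.156), a minimum change of 1.2-fold among them (0.151), and a filter at the 60th percentile removed its probe set. That of Cma1 ended in 2 of 23.

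Against 3 probe sets higher, there were 5 with the 2-level block or with array weights, 7 with the β-actin ratio as a covariate, 9 with controls 1 to 4 only, 15 without the arrays at 6 µg/kg and 10 in the first block alone, but 2 with the filter at the 60th percentile, with a minimum change of 1.2-fold or in the second block alone. Against 1 lower, there were 0 with controls 5 to 8 only or in the second block alone, and 2 without 6 µg/kg or in the first block alone. Leaving out 1 array gave 3 to 5 higher, with 5 without control 1 or without array 1 of 1.5 µg/kg, and 1 lower each time. The causes were not tested, other than that several settings use fewer arrays.

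The count of differences among the doses, 3, was the least stable. It was 0 with the 2-level block, without 1.5 or 6 µg/kg, or in the first block alone, 6 with a pseudocount of 100, 7 with quantile normalization, 9 with the lung covariate, 10 without 3 µg/kg, 61 with controls 1 to 4 only, 84 with controls 5 to 8 only, 85 after dropping the 4 arrays with a high β-actin ratio, 121 with that ratio as a covariate and 146 with array weights. Leaving out 1 array gave 0 (array 3 of 6 µg/kg) to 21 (control 4), and 5 to 19 when any of controls 5, 6 and 7, array 3 of 1.5 µg/kg and array 4 of 3 or 6 µg/kg was dropped. The interaction count of 0 became 1 without array 4 of 6 µg/kg. It could be fitted under 15 of the 23 alternatives, and the test among the doses under 20.

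Replicate numbers were also fitted as a replicate block. The 24 pairs of arrays with the same number had correlations of their deviations from −0.22 to 0.21, and 5 exceeded 0.1. Pairs with different numbers were not compared, so whether the number marks a pairing was not tested. That fit, in which controls 5 to 8 have no partner and add nothing to the difference, gave 9 higher, 1 lower and 45 differences among doses, with Cd74 at 0.68 (limma adjusted p = 0.109).

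Of 57 named genes 48 kept their sign throughout. Ahr was at −0.00099 with the 2-level block, −0.055 without 3 µg/kg, −0.14 in the second block alone, −0.010 with quantile normalization, −0.097 with the β-actin covariate, −0.037 without the high β-actin arrays, −0.055 with the Xist covariate and −0.078 with the lung covariate. Nppa was at 0.068 with controls 5 to 8 only, 0.059 in the second block alone, 0.024 with array weights, 0.0073 with the β-actin covariate and 0.043 without those arrays. Myh7 was at −0.026 without 6 µg/kg, −0.041 in the first block alone, −0.0078 with array weights and −0.016 without the high β-actin arrays. Ints9 was at 0.047 with controls 5 to 8 only and 0.27 without 6 µg/kg, and Nppb at 0.16 in the second block alone and 0.028 with the β-actin covariate. In the second block alone Ckm was at 0.057, Sftpb at −0.17, Ndufs1 at 0.0090 and Aimp1 at 0.0075. With 1 array left out, Ahr ran from −0.046 to 0.094, Nppa from −0.068 to 0.00025 and Myh7 from −0.0092 to 0.048. The causes of these turns were not tested.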
